A study of Mus musculus with 3 samples.

Results

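The regions described here are short clusters of CCCGGG sites on the autosomes of ID8 cells. Within a short stretch of DNA, their methylation went from under 10% to 70% or more. A cluster was a run of listed sites on chromosomes 1 to 19 with no gap over 500 bp and with at least 3 covered sites, and a covered site had at least 10 reads in each of 3 libraries. The level of a site was the methylated share of its reads, averaged over the libraries. Sites under 10% are called low, sites at 70% or more high, and those from 10% to under 70% intermediate. A cluster was a crossing cluster when it held at least 1 low and at least 1 high site, and 278 of the 1709 autosomal clusters did so (16.3%). The measured levels chose these clusters, so the levels of their low and high sites are given as a description.

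ID8 is an ovarian cancer line from C57BL/6 mice, which the labels give as female and as cells of the ovarian surface epithelium. It was grown in RPMI medium without any treatment, and the series holds 1 group of 3 libraries, with no normal epithelium and no treated cells for comparison. Methylation was read by DREAM, digital restriction enzyme analysis of methylation, in which SmaI first cuts unmethylated CCCGGG and XmaI then cuts the methylated sites that remain. The libraries held 7689526, 9190335 and 10361138 reads over 173449 listed sites, of which 24112 were covered, 23638 of them on autosomes. The labels call the samples independent without naming separate cultures, so the spread between these 3 samples may be a technical one. Below, the p-values of Fisher's exact test come from read counts of a pair of libraries and cover counting error only. The sign-flip test takes the libraries as units, so its p-value covers the spread of these 3 samples alone.

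In mammalian DNA the cytosine of most CG dinucleotides carries a methyl group, while CG-rich stretches called CpG islands, many of them at gene starts, are mostly free of it. The stretch beside an island, its shore, is where the level goes from one state to the other. Tumour cells are known for methylation gained inside islands and lost elsewhere, so the place of such a border can differ between a tumour cell and the tissue it came from.

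Gene starts inside crossing clusters were found by sequence, since the coordinates of the files are mm9 and the RefSeq promoter table is GRCm38.p6. A group of promoter windows was matched to listed sites of the same chromosome when the spacing of its CCCGGG sites was exactly the spacing of listed sites. Of 31396 autosomal windows, each reaching from 250 bases before to 50 after a start, 4325 held the motif CCCGGG (13.8%), which reads the same on both strands. In all, 14 crossing clusters (5.04%) and 98 of the other autosomal clusters (6.85%) held a matched start. The match needs at least 2 sites near a start, so clusters with no match were not placed against genes. The 250 bases before the start are shown for 5 of the 14, to show promoters with the methylated side before the start, inside the gene and at the start; they were chosen after their values were seen. Each is written 5′ to 3′ on the strand of its gene (minus for Tom1l1, Zfp385a and Kcnj4, plus for Fgf5 and Dnmt3b), from RefSeq on GRCm38.p6, with the CCCGGG sites, where the enzymes cut, in capitals.
Tom1l1: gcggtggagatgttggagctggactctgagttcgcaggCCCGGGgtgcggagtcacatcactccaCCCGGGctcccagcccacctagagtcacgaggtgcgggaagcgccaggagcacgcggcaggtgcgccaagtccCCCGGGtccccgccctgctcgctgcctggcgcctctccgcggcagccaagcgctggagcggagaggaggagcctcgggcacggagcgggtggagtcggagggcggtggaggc
Zfp385a: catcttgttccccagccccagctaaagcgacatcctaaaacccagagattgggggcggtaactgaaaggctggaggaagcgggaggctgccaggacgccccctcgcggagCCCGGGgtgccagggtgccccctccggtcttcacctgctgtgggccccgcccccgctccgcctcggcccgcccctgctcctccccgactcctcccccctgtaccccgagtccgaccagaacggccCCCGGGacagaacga
Fgf5: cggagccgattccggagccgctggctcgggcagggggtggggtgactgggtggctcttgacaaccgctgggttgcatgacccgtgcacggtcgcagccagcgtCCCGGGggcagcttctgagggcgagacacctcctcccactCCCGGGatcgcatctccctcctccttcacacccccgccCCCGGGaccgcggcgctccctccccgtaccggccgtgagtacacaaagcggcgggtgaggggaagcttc
Dnmt3b: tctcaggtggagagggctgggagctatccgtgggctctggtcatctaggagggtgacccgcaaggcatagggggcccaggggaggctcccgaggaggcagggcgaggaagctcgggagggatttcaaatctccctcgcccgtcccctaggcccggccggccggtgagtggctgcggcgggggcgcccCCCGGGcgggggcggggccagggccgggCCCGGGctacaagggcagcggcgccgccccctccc
Kcnj4: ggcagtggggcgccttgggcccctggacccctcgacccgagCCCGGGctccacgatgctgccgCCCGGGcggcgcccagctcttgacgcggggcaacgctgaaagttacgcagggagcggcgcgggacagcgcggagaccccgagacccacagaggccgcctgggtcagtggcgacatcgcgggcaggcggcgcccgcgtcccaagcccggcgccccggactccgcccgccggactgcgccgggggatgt

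Tom1l1, which encodes an adaptor of endosomal sorting and Src-family kinase signalling, had an unmethylated promoter next to a methylated site. Its cluster lay on chromosome 11 from 90549025 to 90549421. The 3 capitalised sites lay 212, 185 and 112 bases before the start. The site 212 bases before it was at 0.498%, 0.281% and 0.236% in replicates 1, 2 and 3 over 2164 reads. The site 112 bases before it was at 0.595%, 3.27% and 2.44%, and the site between them had no methylated read in 46, which allows a level of up to 6.52%. The next site, 508 bases before the start, was at 100%, 99.5% and 99.8% over 1335 reads. The level thus changed by 99.4 percentage points over 296 bp. No library overlapped between the sides, which the choice of low and high sites by these same levels largely fixes.

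Zfp385a, a zinc finger gene whose product binds RNA, showed the same order on chromosome 15 from 103170530 to 103171244. The site 15 bases before its start had no methylated read in 84, which allows up to 3.57%. A thinly read site 8 bases after the start, not covered, had 23 of 29 reads methylated (79.3%, exact 95% interval 60.3% to 92.0%), so the start itself was not uniformly low. The site 140 bases before it was at 6.98%, 5.87% and 4.83%, and that 384 bases before it at 6.01%, 7.88% and 6.17% over 9724 reads. The site 729 bases before the start was at 98.2%, 99.8% and 99.8%. The 2 low sites with the most reads were thus near 6% rather than at 0, and the boundary between 384 and 729 bases was 345 bp wide.

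Fgf5, a growth factor known for ending the growth phase of hair, had the reverse order, with the methylated side inside the gene. Its cluster on chromosome 5 ran from 98683137 to 98684025. The site 69 bases before the start was at 5.86%, 7.38% and 8.17% over 2305 reads. The site 338 bases after the start was at 99.5%, 99.9% and 99.3%, and the site 819 bases after it at 90.3%, 90.1% and 90.5%. The other sites of its printed promoter, 147 and 107 bases before the start, held 5 and 6 reads in all and were not covered.

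Dnmt3b encodes a de novo DNA methyltransferase, an enzyme that sets new methylation. Its cluster on chromosome 2 ran from 153475153 to 153475965 and was matched on 2 sites, with a shift between builds within 1 kb of that of a neighbouring match. The capitalised site 63 bases before the start held 5 reads and was not covered. The site 35 bases before the start had no methylated read in 133, which allows up to 2.26%, and the site 102 bases after it was at 0.591%, 0.243% and 0.381%. The site 581 bases after the start was at 45.0%, 55.2% and 52.8%, and the last site, 777 bases after it, at 70.7%, 76.1% and 74.6%. The level thus rose into the gene over 675 bp through an intermediate site whose libraries all lay between those of its neighbours.

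Kcnj4, an inwardly rectifying potassium channel gene, was methylated at its start and unmethylated further out. On chromosome 15 the site 40 bases after its start was at 88.9%, 89.3% and 89.9%. The capitalised sites, only 22 bp apart, differed: the one 187 bases before the start was at 67.3%, 63.1% and 69.0%, and the one 209 bases before it at 26.4%, 28.9% and 27.5%. The levels further out were 74.5% ± 2.17 (SD, n = 3) at 416 bases, 23.2% ± 0.188 at 540 bases and 0.776% ± 0.632 at 741 bases before the start. The order of levels along this promoter was the same in each library, with no overlap between neighbouring sites. Beyond the low site, a site 834 bases before the start that was not covered had 12 of 14 reads methylated (85.7%, exact 95% interval 57.2% to 98.2%).

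**Figure D1:**
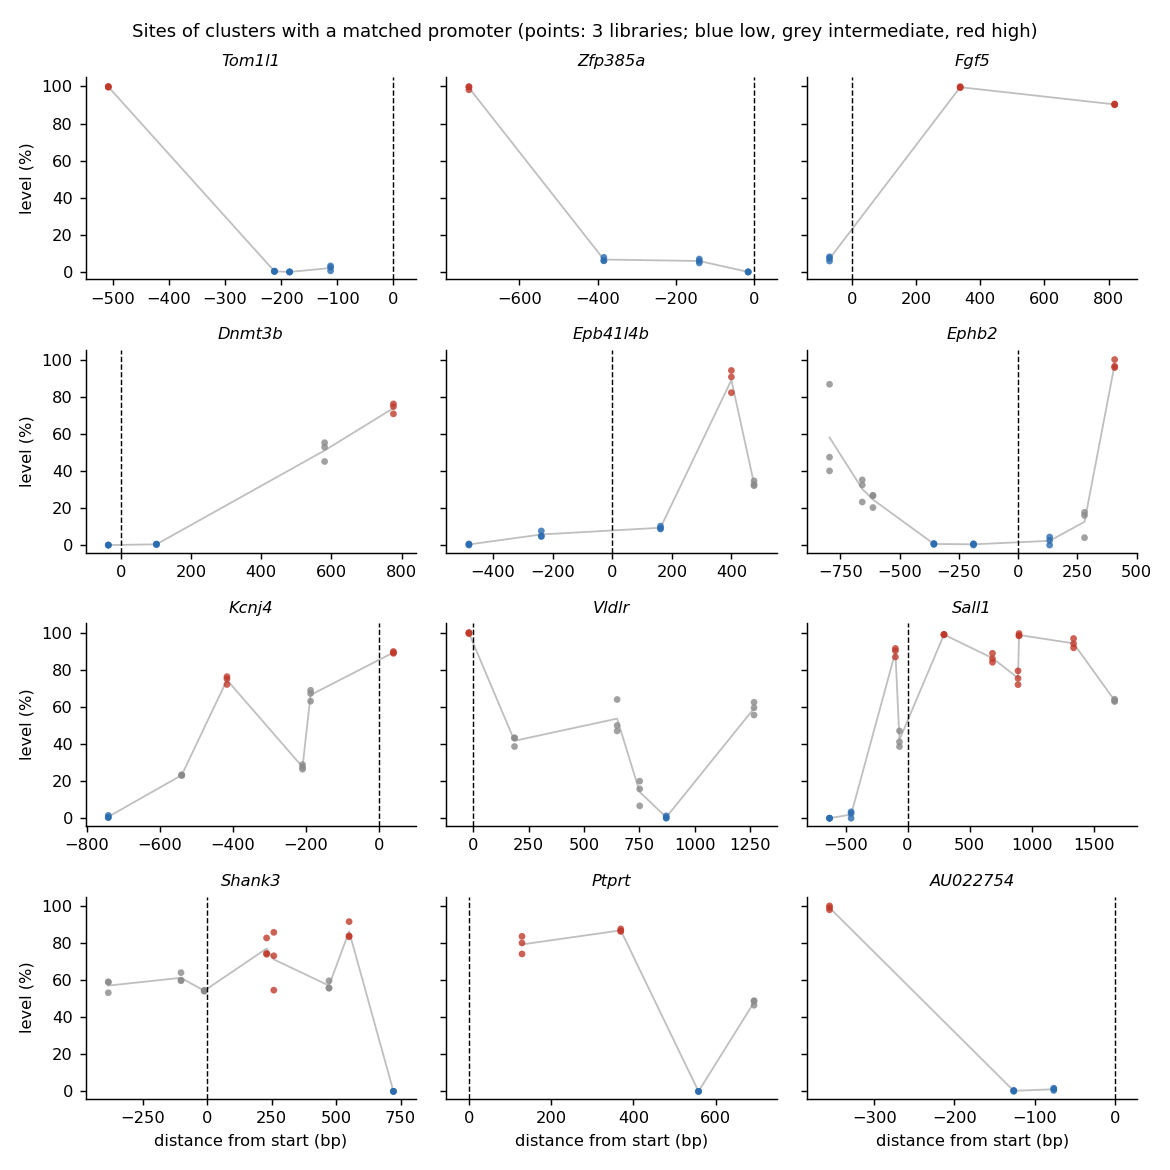
Methylation level in percent against the distance from the matched gene start in bp, for the covered sites of 12 clusters; each point is 1 library, coloured by the class of the site's mean, the grey line joins the means and the dashed line marks the start. Tom1l1, Zfp385a and Dnmt3b have low covered sites near the start and a high site over 500 bp away, Fgf5 is high from 338 bases after its start, and Kcnj4, Vldlr and Sall1 hold high or intermediate sites near theirs.

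The remaining matched clusters showed both orders. AU022754, on chromosome 15 from 85411219 to 85411499, was at 0.276% ± 0.259 (SD, n = 3) at 126 bases and 1.14% ± 0.603 at 76 bases before its start, and at 99.0% ± 1.06 at 356 bases before it. A site not covered there, 378 bases before the start, had no methylated read in 24 (exact 95% upper bound 14.2%). Epb41l4b, a gene of the band 4.1 family of membrane-skeleton proteins, was at 9.34% ± 0.807 (SD, n = 3) at 162 bases after its start and at 89.0% ± 6.16 at 400 bases. Ephb2, an ephrin receptor gene, had 3 low sites between 355 bases before and 133 bases after its start, with 12.5% ± 7.45 at 280 bases and 97.4% ± 2.32 at 407 bases after it, over 84 and 78 reads. A site not covered, 322 bases after the start, had no methylated read in 15 (exact 95% upper bound 21.8%). The cluster was also matched to Gm31536 on the other strand, and the site at 97.4% lay 335 bases before that start. On the other side the level went to 24.5% ± 3.74 at 612 bases before the Ephb2 start and 30.3% ± 6.25 at 657. The last site of the cluster, at 795 bases before the Ephb2 start, was at 86.7%, 47.4% and 40.0% over only 44 reads, so the libraries gave it no firm level.

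Vldlr, a lipoprotein and reelin receptor gene, was at 99.8% ± 0.315 at 20 bases before its start and reached 0.515% ± 0.672 at 872 bases after it, through 3 intermediate sites. Those at 650 and 752 bases after the start held only 87 and 69 reads. Past the low site the level was 59.2% ± 3.45 at 1269 bases, over 2626 reads. Sall1, which encodes a developmental transcription factor, was at 99.0% ± 0.146 at 294 bases after its start, at 42.3% ± 4.32 at 65 bases before it over 129 reads, and at 89.6% ± 2.38 at 98 bases before it. It was low at 455 and 629 bases before the start, with 122 and 133 reads; these sites lay 195 and 21 bases after another RefSeq start of the gene. Shank3, a scaffold gene of excitatory synapses, was intermediate at its start, with 54.2% ± 0.274 at 12 bases before it. After the start it was at 77.0% ± 4.95 at 230 bases, 71.1% ± 15.7 at 258 bases over only 51 reads, 57.0% ± 2.26 at 472 bases and 86.2% ± 4.57 at 550 bases. Its site at 722 bases after the start had no methylated read in 154, which allows up to 1.95%. Within Ptprt, a receptor tyrosine phosphatase gene, the site at 558 bases after the start had no methylated read in 289, which allows up to 1.04%. Its neighbours at 369 and 693 bases were at 86.8% ± 0.702 and 48.0% ± 1.34. The cluster at the starts of 2600014E21Rik and Gm13652, on chromosome 2 from 74975549 to 74976106, had a low site at 3.36% ± 0.383 between sites at 100% and 84.7% ± 1.73 with only 32 and 52 reads.

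Sites of the 14 matched clusters within 250 bp of the nearest start were low in 18 of 33, intermediate in 7 and high in 8, with a median level of 7.13%. Further out they were low in 8 of 39, intermediate in 13 and high in 18, with a median of 59.2%. In the matched clusters that did not cross, 207 of 275 sites within 250 bp and 96 of 128 further out were low. The levels chose the crossing clusters, so this difference was not tested.

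The 278 crossing clusters held 1216 listed and 1054 covered sites. Of the covered sites 434 were low (41.2%), 177 intermediate (16.8%) and 443 high (42.0%), against 63.8%, 13.8% and 22.4% in the other autosomal clusters. Their mean levels were 2.07% ± 0.186 (SD, n = 3), 37.1% ± 0.191 and 92.2% ± 0.0948. The medians of 0.741% and 96.5% for low and high sites lay close to the ends of the scale. No methylated read was seen in any library at 62 sites, where a count of 0 allows a level of 0.0780% to 6.67%, and no unmethylated read at 40. These limits, like the precision of every level, cover counting error only.

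Crossing clusters were found on every autosome. Their share of the clusters went from 4.17% on chromosome 16 (2 of 48) to 22.2% on chromosome 15 (22 of 99). On the X chromosome, outside the rule, 10 of 35 clusters crossed (28.6%). The median span was 636 bp, against 564 bp in the other autosomal clusters. Clusters with more covered sites have more chances to hold both classes: 15.2% of those with 3 covered sites crossed, 14.3% with 4, 20.9% with 5, 29.1% with 6, 13.3% with 7 (2 of 15), and 8 of the 16 with 8 or more.

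Clusters near the limits of the rule differed little in level from those just outside. The crossing clusters whose lowest site was nearest to 10% had it at 9.99977%, 9.70% and 9.69%, in clusters starting at 66006161 on chromosome 9, 103380223 on chromosome 3 and 91558319 on chromosome 7. The lowest sites of the nearest clusters left out were at 10.2%, 10.4% and 10.8%. At the upper limit the highest sites were at 70.7%, 70.7% and 70.8% inside and at 69.8%, 68.7% and 68.7% outside. Far from the limits, 184 of the 278 clusters held a site under 5% and a site at 90% or more.

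Most crossing clusters changed level once. In 234 of 278 (84.2%) the sites went from high to low or from low to high a single time along the chromosome, 118 in one orientation and 116 in the other. High sites stood on both sides of low ones in 29 clusters (10.4%) and low sites on both sides of high ones in 13 (4.68%), while 2 clusters changed 3 times. Clusters of 3 covered sites allow few shapes. The share with more than 1 change was 13.9% with 3 sites, 10.7% with 4, 19.4% with 5 and 34.6% with 6 or more (9 of 26). In 155 clusters the methylated side was 1 high site, and in 145 the unmethylated side was 1 low site.

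**Figure D2:**
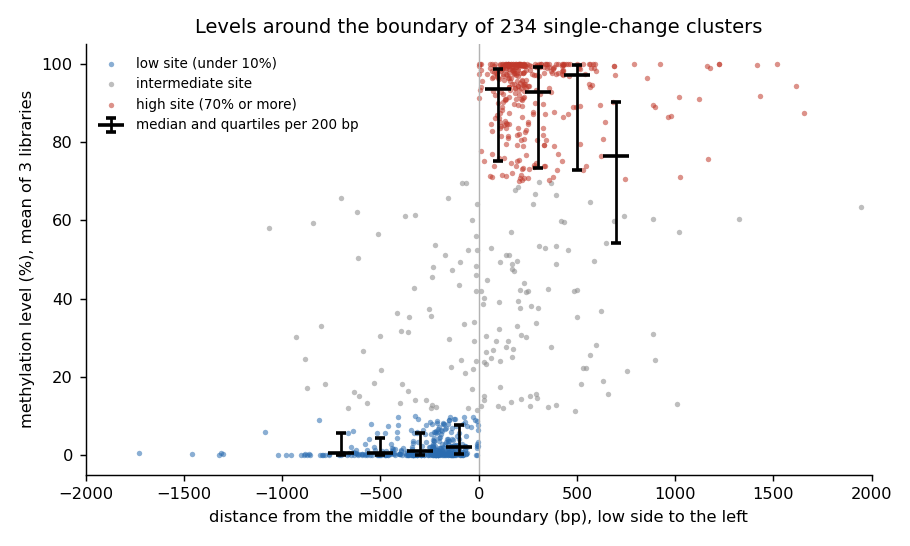
Methylation level of every covered site of the 234 clusters with a single change, in percent, against the distance in bp from the middle of the boundary, turned so that the low side is to the left. Black marks give the median and quartiles per 200 bp; the median is 2.08% in the last 200 bp of the low side and 93.5% in the first 200 bp of the high side.

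The longest high-low-high cluster lay on chromosome 16 from 35155151 to 35156713 and had 7 high sites and 1 low site. The low site, at 35156323, was at 0%, 1.23% and 2.56% over 261 reads. Its neighbours at 35156065 and 35156573 were at 93.4% ± 0.867 (SD, n = 3) and 90% ± 1.11 over 2228 and 1832 reads. A similar cluster lay on chromosome 15 from 39028973 to 39030486, where the low site at 39029457 was at 0%, 6.38% and 12.7% over 266 reads. There replicate 3 alone was above the limit of 10%, while the neighbouring high sites were at 84.9% ± 6.07 and 96.2% ± 0.378. On chromosome 11, the cluster from 108781521 to 108782413 had 4 low sites between high ends at 96.7% ± 1.73 and 100%, which held 149 and 72 reads.

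Clusters of the low-high-low shape had a median span of 689 bp. On chromosome 14 the cluster from 64225466 to 64226267 rose from 0 of 265 reads through 54.3% ± 3.10 (SD, n = 3) and 68.2% ± 2.0 to 98.8% ± 0.266 at 64226041. It was back at 0.177% ± 0.307 after a further 226 bp. The start of Gm10649, a predicted gene, lay in a cluster of this shape on chromosome 8, with 3.11% ± 1.12 at 3 bases before the start. Its sites 199 and 287 bases after the start were at 75% ± 1.17 and 80.4% ± 2.14, and that 705 bases after it at 5.09% ± 2.92. On chromosome 5 the cluster from 148000330 to 148000916 alternated at each site, with 86.3% ± 3.81, 0.198% ± 0.344, 91.7% ± 1.40 and 0.224% ± 0.197.

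The outer sites of a cluster were not uniformly the methylated ones. The first and last covered sites averaged 47.8% ± 0.0634 (SD, n = 3) and the sites between them 42.6% ± 0.117, a mean difference of 5.24 points ± 0.0751. The edges were higher in all 3 libraries in 149 clusters and the centre in 121. By the mean level, edges were higher in 154 of 278 (55.4%), against 734 of 1431 other autosomal clusters (51.3%). In 174 clusters one end was high and the other low, while both ends were high in 26 and both low in 11.

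A boundary was a low and a high site with nothing but intermediate sites, or no covered site, between them, and the 278 clusters held 324 boundaries. In 260 (80.2%) the low and the high site were neighbours among the covered sites, and in 247 of these they were neighbours among all listed sites as well. Another 54 boundaries held 1 intermediate site, 9 held 2 and 1 held 3. The median width, the distance between the low and the high site, was 312 bp, with a range of 6 to 1066 bp. It was 282.5 bp without an intermediate site and 566 bp with one or more. The width is an upper bound only on the distance within which the level passed between low and high, since nothing is read between listed sites. It does not bound the whole change, since levels could go on changing outside the boundary. In the Kcnj4 cluster, the next covered site beyond the high site of the boundary was at 27.6%. The rule caps each gap between listed sites at 500 bp.

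**Figure D3:**
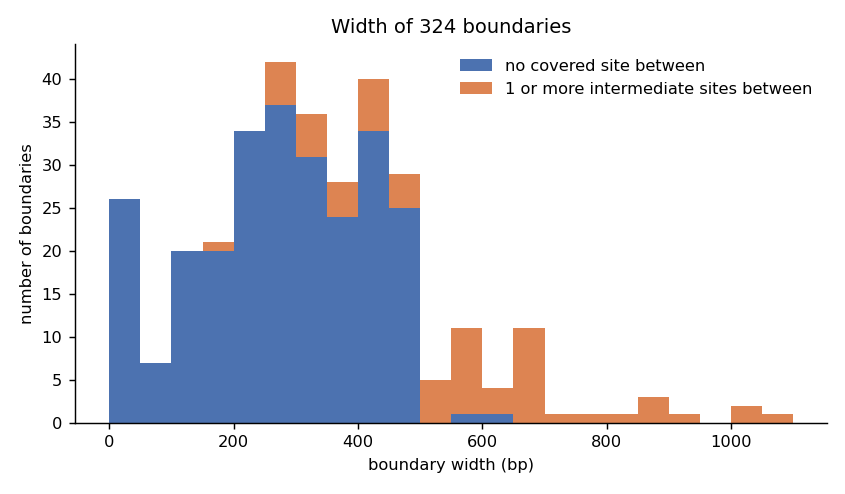
Number of boundaries against boundary width in bp, in bins of 50 bp, stacked by whether an intermediate site lies between the low and the high site. Boundaries without one, 260 of 324, lie at up to 622 bp, and those with one or more at 172 to 1066 bp.

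The steps were large, which the choice of low and high sites by these same levels largely fixes. Across the 324 boundaries the high site exceeded the low site by 89.4 points ± 0.435 (SD over libraries, n = 3) on average, with a median of 92.2. The smallest step in any library was 50.9 points, and 156 boundaries had at least 90 points in every library. The clusters with the most sites show the range of widths. The step of 99.6 points on chromosome 4 between 114580495 and 114581085 took 590 bp, that of 95.7 points on chromosome 2 from 153353912 to 153354380 took 468 bp, and that of 90.5 points on chromosome 13 from 55313064 to 55313342 took 278 bp. Inside the step on chromosome 4, a site not covered, at 114580837, had 10 of 10 reads methylated (exact 95% interval 69.2% to 100%). Among the low sites of that cluster, another site not covered, at 114581137, had 19 of 20 reads methylated.

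Some low and high sites were read only a few bases apart, by DREAM alone. Of the 324 boundaries 33 were at most 100 bp wide (10.2%), and 15 at most 20 bp. Among these 15, only 3 had at least 50 reads at both sites in every library, and in 9 the thinner site held under 100 reads over the 3 libraries. On chromosome 3, the site at 68673993 was at 2.56%, 1.64% and 1.38% over 384 reads, and the site 9 bp away, at 68674002, at 98.2%, 97.5% and 98.6% over 430 reads. On chromosome 10, 24315593 was at 1.06%, 0.560% and 0% over 1026 reads, and 24315604, 11 bp away, had no unmethylated read in 246. On chromosome 4, 120725366 had no unmethylated read in 1408 and 120725384, 18 bp away, no methylated read in 664, which allows at most 0.213% unmethylated at the first and 0.452% methylated at the second.

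Each of these pairs was separated in all 3 libraries with no overlap, which the choice of low and high sites by their mean levels largely fixes. The next shortest boundaries with 50 reads or more were 28 bp on chromosome 12 at 68323237 and 68323265, with 72.8% ± 5.29 (SD, n = 3) and 1.0% ± 1.73, and 36 bp on chromosome 3 at 104584339 and 104584375, with 8.87% ± 2.28 and 95.4% ± 3.02. On chromosome 1, the low site at 136981724, at 1.92% ± 0.340, stood 53 bp from a site at 99.5% ± 0.550 and 248 bp from another at 99.3% ± 0.317. The 13 clusters whose boundaries were all at most 100 bp wide are the ones that such close pairs alone put in the set. Thin reads moved with the close pairs, as the counts above show, and their part in them was not tested.

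Over all adjacent covered sites of autosomal clusters, the share of pairs with a low and a high site was lowest at 51 to 200 bp. It was 13.3% for sites 1 to 20 bp apart (15 of 113) and 5.85% for those 21 to 50 bp apart. The lowest shares were 2.73% (51 to 100 bp) and 2.87% (101 to 200 bp). Beyond 200 bp it was 6.53% up to 300 bp, 7.40% up to 400 bp and 10.2% up to 500 bp (57 of 560). With at least 50 reads in every library at both sites, the share was 6.82% at 1 to 20 bp (3 of 44), 2.67% at 21 to 50 bp (2 of 75) and 1.92% at 51 to 100 bp. It was 0.875% at 101 to 200 bp (6 of 686), 5.76% up to 300 bp, 6.02% up to 400 bp and 8.35% at 401 to 500 bp. The share at 1 to 20 bp was thus above that at 51 to 200 bp at both depths, on 15 and 3 pairs. It was the highest of all distances with 10 reads only, and with 50 reads it was below that at 401 to 500 bp.

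**Figure D4:**
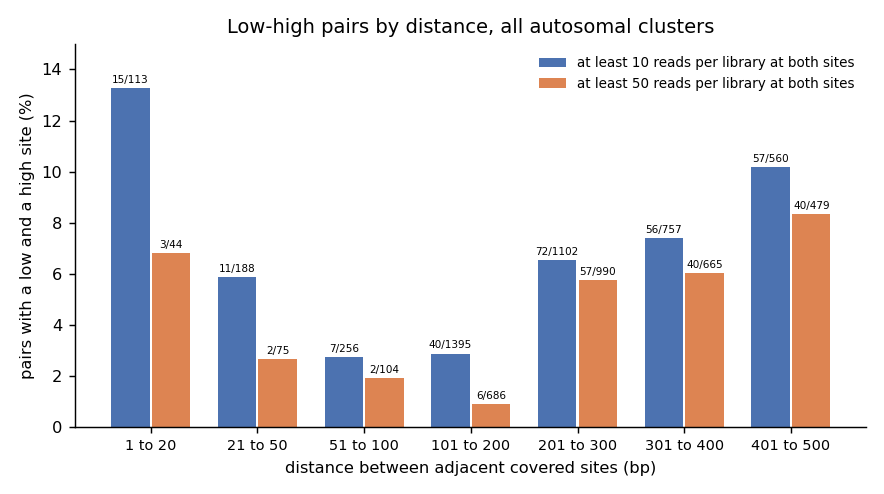
Share of adjacent covered pairs that hold a low and a high site, in percent, by the distance between the sites in bp, over all autosomal clusters and for a minimum of 10 or of 50 reads per library; the numbers above the bars are pairs with both classes over all pairs. With at least 50 reads the share is 0.875% at 101 to 200 bp and 8.35% at 401 to 500 bp.

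Intermediate sites stood in 129 of the 278 clusters (46.4%). Of the 177 intermediate sites, 75 lay between a low and a high site, 33 beyond the outermost low site toward a cluster end, 48 beyond the outermost high site, 14 between high sites and 7 between low sites. By level, 72 were at 10% to under 30% (40.7%), 57 at 30% to under 50% (32.2%) and 48 at 50% to under 70% (27.1%). In the other autosomal clusters those shares were 36.2%, 31.5% and 32.2% of 701 sites.

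Intermediate sites nearer the high site were not the more methylated ones. Of the 75 between a low and a high site, the 31 nearer the low site had a median of 41.9% and the 44 nearer the high site a median of 31.3%. Their mean over the libraries was 36.2% ± 0.821 (SD, n = 3). In 7 of the 10 boundaries with more than 1 intermediate site the mean levels ran in one order from low to high. Single libraries went the other way in some of these. On chromosome 2, replicate 2 had 48.4% at 28302440 and 42.8% at 28302623, which is nearer the high site. On chromosome 15, replicate 3 had 37.8% at 79634792 and 37.6% at 79634338, which is nearer the high site. The 3 boundaries out of order by the mean were that of the Vldlr cluster, another on chromosome 15 and one on chromosome 5. On chromosome 5, the site at 114724514, nearer the high site, was at 12.5% ± 2.98 and that at 114724636, nearer the low site, at 29.2% ± 3.22. On chromosome 15, the sites at 81524787 and 81525046 were at 21.9% ± 1.26 and 20.1% ± 0.75, and their libraries overlapped. A cluster on chromosome 9 from 64989091 to 64990063 had its 4 intermediate sites, at 33.1%, 62.0%, 21.7% and 16.3%, outside the boundary, on the far side of the low site.

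**Figure D5:**
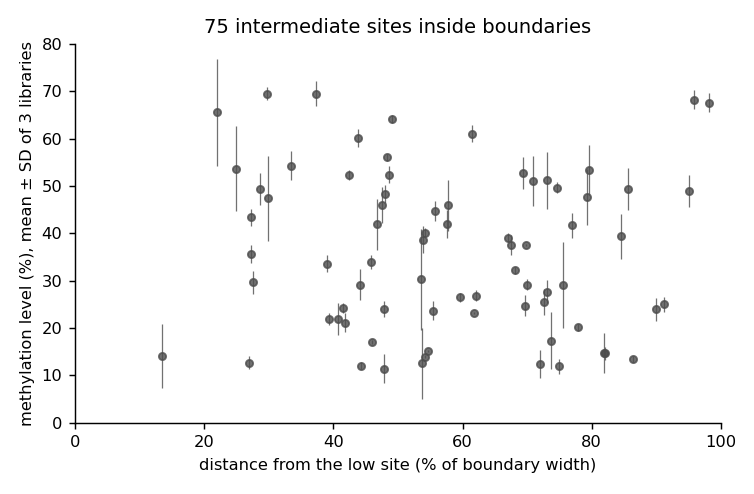
Level of the 75 intermediate sites that lie between a low and a high site, in percent, as the mean ± SD of 3 libraries, against the distance from the low site as a percentage of the boundary width. Levels from 10% to under 70% occur across the width; the 31 sites nearer the low site have a median of 41.9% and the 44 nearer the high site one of 31.3%.

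The libraries gave close levels at intermediate sites as well. The median SD between libraries was 2.47 points at intermediate sites, 0.365 at low and 1.01 at high sites. The class of the mean held in each library at 153 of 177 intermediate, 403 of 434 low and 420 of 443 high sites. Pairs of libraries were compared at each site by Fisher's exact test (two-sided) with Benjamini-Hochberg adjustment over the 24112 covered sites, a call needing an adjusted p under 0.05 and 20 points. None of the 1054 sites was called in any pair, where the share called over all covered sites was 0.00415% for replicates 1 and 2, 0.00415% for replicates 1 and 3, and 0% for replicates 2 and 3.

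By the same test, 57, 53 and 56 of the 1054 sites had an unadjusted p under 0.05 (5.41%, 5.03% and 5.31%), against 3.02%, 3% and 2.84% of all covered sites. Intermediate sites made up 21, 20 and 18 of them. A chi-square test divided by the excess spread between libraries also called 0 sites, with 109 comparisons over the 3 pairs at an unadjusted p under 0.05 against 166 by Fisher's exact test. By the adjusted p alone, without the 20 points, 1, 1 and 0 sites passed, against 0.0415%, 0.0373% and 0.0249% of all covered sites. These were the intermediate site at 137780458 on chromosome 5, at 47.6%, 58.1% and 54.4%, and that at 118471093 on chromosome 11, at 37.4%, 50% and 54.7%. The chi-square between libraries per degree of freedom, which is 1 with counting error alone, averaged 1.71, 1.64 and 1.37 at the intermediate sites for the pairs 1 and 2, 1 and 3, and 2 and 3. In other autosomal clusters it was 1.69, 1.49 and 1.46.

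The crossing state was mostly seen again in a library whose levels had not been used to choose the clusters. The read minimum still took in all 3 libraries. Leaving a library out altogether gave 297, 282 and 278 clusters for replicates 1, 2 and 3. The samples may be technical repeats, so the counts below cover the spread of these 3 samples alone. Chosen on replicates 2 and 3, 268 of 277 clusters crossed in replicate 1 (96.8%). For replicate 2 held out the count was 262 of 275 (95.3%), and for replicate 3 it was 259 of 276 (93.8%). The held-out step had the chosen direction at 324 of 324, 319 of 319 and 324 of 324 boundaries, with a smallest step of 40.8, 50.9 and 17.7 points. In each library by itself 274, 270 and 263 of the 278 clusters crossed, and 254 did in all 3.

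Read depth at the low against the high sites of a cluster had no common direction over the libraries. The median over clusters of the log2 ratio of reads at low to reads at high sites was -0.03, -0.07 and 0.06 in replicates 1, 2 and 3, and an exact sign-flip test over the libraries gave p = 0.75 (two-sided), where 0.25 is the smallest p that 3 libraries allow, so the test could not have found a difference. The quartiles over clusters were -1.69 and 1.76, so single clusters were often lopsided, with more reads at the low sites in all libraries in 125 and at the high sites in 130. Over all covered autosomal sites the low sites were the deeper ones, by a median log2 ratio of 1.23 ± 0.0807 (SD, n = 3). Counts of other listed sites within 500 bp had a median difference of 0 between the low and high sites of a cluster. More neighbours stood at the low sites in 92 clusters, at the high sites in 82, and equal numbers in 104.

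Covered sites outside the clusters, up to 5 kb beyond an end, were not used by the rule, and the nearest at each end was read. Only 44 of 235 low ends and 48 of 253 high ends of crossing clusters had one, at median distances of 862.5 and 1114 bp. In the other autosomal clusters 269 of 1795 low ends and 125 of 653 high ends had one. The counts below leave out all ends without such a site. Beyond a low end of a crossing cluster 19 of 44 such sites were low, 9 intermediate and 16 high, with a mean of 45.1% ± 0.271 (SD, n = 3). Beyond a high end, 12 of 48 were low, 16 intermediate and 20 high, with a mean of 53.4% ± 1.60. Around the other autosomal clusters, 178 of 269 sites beyond a low end were low, with a mean of 26.7% ± 0.0735, and 64 of 125 beyond a high end were high, with a mean of 57.6% ± 0.686. The difference between the sides was thus 8.36 points around crossing clusters, but it was 33.7 points when at least 50 reads were required and 25.4 points with a gap limit of 250 bp, and the cause was not tested.

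Within the clusters, 162 listed sites fell short of 10 reads in some library, and 73 of them had at least 10 reads summed over the libraries. Of the 15 such sites between a low and a high site, 6 were low by their summed reads, 5 intermediate and 4 high. Beyond the outermost low site 9 of 19 were low, and beyond the outermost high site 12 of 22 were high. These thinly read sites entered none of the counts of low, intermediate and high sites above.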

How the data were processed

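DNA methylation was measured by DREAM in 3 libraries of untreated ID8 cells. Per the submitters' processing notes, Bowtie2 and SAMtools were used and the builds mm9 and rn4 are named; for duplicate handling and tool versions, nothing was stated (not given in the sources used here). The authors deposited, per library, counts of methylated, unmethylated and total reads at 173449 CCCGGG sites, which are not normalized. The deposited percent columns are a raw percent and an adjusted percent, whose library factor is not explained in the sources used here; the adjusted percent served as an alternative. Coordinates are as deposited (mm9).

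Levels were computed as 100 times methylated over total reads per library, with Python 3.11.15, numpy 2.4.6, pandas 2.3.3 and scipy 1.17.1. Depth was 7689526 to 10361138 reads per library; the crossing clusters' low, intermediate and high sites had medians of 937, 1207 and 843 summed reads, and 89, 38 and 107 of them had under 50 reads in some library. Fisher's exact test, adjusted by Benjamini-Hochberg, ran over all covered sites and was tested on simulated data. The members and lists were chosen with earlier results of these data known. Named clusters were the 4 with the most covered sites per shape, the 6 shortest boundaries with at least 50 reads in every library at both sites, the 4 with the most intermediate sites, the 3 nearest each side of each limit, and those with a matched gene start; not all are described.

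Gene starts came from RefSeq (GRCm38.p6) by CCCGGG spacing, a step chosen after the tables were seen. Windows up to 1000 bp apart were joined; 185 of 188 groups with 3 or more sites matched once on their own chromosome, and of 178 with a single match over all chromosomes 178 lay on their own. Groups of 2 sites were accepted (85 of 646) when their shift between builds was within 1 kb of that of the next match on either side. Dnmt3b and Shank3 were matched in this way. Exons, introns and other genes were not analysed here, as no mm9 annotation was used. Alternatives covered read minimum, gap limit, class limits, the adjusted percent, summed reads and each library left out.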

Additional observations from a re-analysis of the deposited data

How the results depend on the processing

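No paired analysis was possible because the series has 1 group. The number of crossing clusters (278) was 155 with a minimum of 50 reads, 61 with a gap limit of 250 bp, 480 with 1000 bp and 184 with class limits of 5% and 90%; without single libraries it was 278 to 297. The median boundary width (312 bp) was 325 and 343 bp with minima of 20 and 50 reads, 191 and 418 bp with gap limits of 250 and 1000 bp, 302.5 and 336 bp with limits of 20% and 80% and of 5% and 90%, 315 bp by the adjusted percent and 305.5 to 309 bp without single libraries. The width thus moved with the gap limit that caps it. The share with a single change (84.2%) was 88.6% and 87.7% with minima of 20 and 50 reads, 78.7% and 81.25% with gaps of 250 and 1000 bp, 90.2% with limits of 5% and 90%, and 83.2% to 84.0% without single libraries. The median difference between edges and centre (11.5 points) was 20.2 and 18.96 with those gaps, 19.9 with limits of 5% and 90%, and 9.58 to 16.0 without single libraries. The intermediate share (16.8%) was 17.4%, 16.4% and 18.0% with minima of 20 and 50 reads and the gap of 250 bp, 24.9% with limits of 5% and 90%, by their construction, and 16.6% to 17.3% without single libraries. The log2 ratio of reads (-0.014) changed sign to 0.0094 with 50 reads, 0.13 with a gap of 1000 bp, 0.10 with limits of 5% and 90% and, without replicates 1 and 2, 0.076 and 0.053; it was -0.39 with a gap of 250 bp, -0.12 with limits of 20% and 80% and -0.10 by the adjusted percent, and -0.051 to 0.076 over the libraries left out. The difference between sides outside (8.36 points) was 33.7 with 50 reads and 25.4 and 11.8 with gaps of 250 and 1000 bp. The causes were not tested. No site was called between libraries by the chi-square test, with a minimum of 50 reads or without any single library; the call was not run under the other settings. Chosen after seeing the data, counting only boundaries wider than 100 bp left 265 clusters and a median of 330 bp, and requiring 3 matched sites left 12 of 14 clusters with a gene start. With a minimum of 10 reads, a level near 10% or 70% is uncertain, and 135 of 278 clusters had at least 50 reads in each library at every low and high site.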
